A study of Mus musculus with 6 samples.

Results

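Immediate early genes are the genes that cells switch on within minutes of a signal, from proteins already present and without new protein synthesis. The 10 genes described here were chosen by symbol from this class, without use of any measured value. They are Fos, Fosb, Jun, Junb, Atf3, Egr1, Nr4a1, Ier2, Dusp1 and Zfp36, and all 10 had a row among the 48709 genes of the count table and passed the filter on low counts. Ovaries of 13.5 dpc (days post coitum) CD1 mouse embryos were profiled by RNA sequencing in 6 libraries, 3 control and 3 exposed to APAP+IBU, and a separate pool of embryonic gonads went into each. From 10.5 dpc until 13.5 dpc, the dams of the APAP+IBU group were given acetaminophen (APAP, 30 mg/kg/day) and ibuprofen (IBU, 15 mg/kg/day) in turn by gavage, 4 times a day with 3 h between doses, and control dams were given ethanol diluent. All dams were wild type and of the CD1 strain, and the ovaries of both groups were frozen on dry ice before RNA extraction. The exposed libraries carry only IBU in their titles but both drugs in their exposure label, which was followed.

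In this response, growth factor, stress and calcium signals run through the RAS-RAF-MEK-ERK, JNK, p38 and protein kinase A cascades to transcription factors that already sit on DNA, mainly serum response factor with its ETS partners and CREB. These factors switch on genes for further transcription factors (Fos, Fosb, Jun, Junb and Atf3 of the AP-1 and ATF families, the zinc finger protein Egr1, the orphan nuclear receptor Nr4a1) and for inhibitors that end the response, such as the MAP kinase phosphatase Dusp1 and the mRNA decay factor Zfp36. The mRNAs are short lived, partly through AU-rich elements that Zfp36 itself binds. Dissection and warming of tissue are also known to induce these genes. Prostaglandin E2, whose synthesis ibuprofen blocks, can raise them through cyclic AMP in many cell types.

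Short regulatory sequences of the members that the results turn on are shown first. Promoter sequences from RefSeq (GRCm38.p6) matched 8 of the 10 genes, and 4 of them are printed for the 250 bases before the start site, read 5′ to 3′ on the strand of the gene. Jun and Dusp1 are shown because they were lower after exposure in part of the libraries, Fos as the prototype of the class, and Zfp36 for its CArG box (the serum response factor site). Capitals mark matches on either strand to the CArG box, the cyclic AMP response element TGACGTCA, its half-site TGACG, the AP-1 site TGANTCA, the TATA box TATAAA and the EGR site GCGTGGGCG, and the half-site lies within the full element.
Fos promoter, chr12:85473640-85473889, plus strand: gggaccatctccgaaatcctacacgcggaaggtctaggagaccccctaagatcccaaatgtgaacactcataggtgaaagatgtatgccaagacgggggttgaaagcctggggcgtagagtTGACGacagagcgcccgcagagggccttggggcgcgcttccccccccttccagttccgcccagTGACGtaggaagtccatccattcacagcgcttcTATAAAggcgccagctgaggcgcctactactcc
Jun promoter, chr4:95052223-95052472, minus strand: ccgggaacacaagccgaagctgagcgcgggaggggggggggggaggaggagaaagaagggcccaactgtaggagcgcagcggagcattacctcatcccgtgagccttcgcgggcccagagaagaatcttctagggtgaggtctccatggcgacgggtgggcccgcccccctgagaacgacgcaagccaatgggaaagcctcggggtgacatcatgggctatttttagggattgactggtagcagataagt
Dusp1 promoter, chr17:26508473-26508722, minus strand: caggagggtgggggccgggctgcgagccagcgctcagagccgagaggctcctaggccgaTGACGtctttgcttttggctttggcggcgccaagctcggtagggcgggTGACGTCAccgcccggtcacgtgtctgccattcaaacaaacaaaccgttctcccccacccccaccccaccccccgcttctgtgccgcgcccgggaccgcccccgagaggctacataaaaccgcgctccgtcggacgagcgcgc
Zfp36 promoter, chr7:28379229-28379478, minus strand: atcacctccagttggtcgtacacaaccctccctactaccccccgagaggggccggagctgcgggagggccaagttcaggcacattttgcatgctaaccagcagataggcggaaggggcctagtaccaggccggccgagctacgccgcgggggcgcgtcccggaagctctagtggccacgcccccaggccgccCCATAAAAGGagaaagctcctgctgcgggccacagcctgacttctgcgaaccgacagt

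The half-site TGACG, added to the search after the promoters had been read, was found in 6 of the 8 promoters (Fos, Fosb, Junb, Atf3, Nr4a1 and Dusp1), against 17.7% of 32817 promoters in the same table. The full element TGACGTCA was found in Dusp1 alone among the 8 and in 1.55% of all promoters. A CArG box was found in Zfp36 alone among the 8 and in 1.47% of all promoters. The TATA box was found in Fos alone among the 8 and in 12.4% of all promoters. Neither the AP-1 site (6.75% of all promoters) nor the EGR site (0.536%) was found in these windows. A match is a run of letters in a window of 250 bases, not a measured binding site. Sites farther upstream lay outside these windows, and Egr1 and Ier2 had no promoter sequence here. A gene without a match, such as Fos for the CArG box, may have one elsewhere. Near matches were not sought. The Jun window, without a marked match, holds TGACATCA, which differs from TGACGTCA in a single letter.

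The AU-rich nonamer TTATTTATT was found in the longest annotated 3′ untranslated region of 3 of the 10 genes, against 7.69% of 16061 tested genes with such a region. The first nonamer of each of the 3 genes is shown in capitals within 29 bases of GENCODE M21 transcript sequence, since it is the kind of element that destabilises these mRNAs.
Fos: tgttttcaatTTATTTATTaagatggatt
Dusp1: gagctggtccTTATTTATTtaacaccccc
Zfp36: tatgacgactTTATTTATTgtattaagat

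Total counts ran from 37811968 to 48954631 per library. Levels are given as CPM (counts scaled to the library total, with TMM normalisation), and a gene is said to be called, or to have risen or fallen, where its adjusted p in edgeR's quasi-likelihood test was under 0.05. Markers of germ, supporting, stromal and endothelial cells were detected in all libraries, with no marker at 0. Replicate 3 of both groups stood apart through liver genes, whose sum over 12 genes reached 1977 CPM in the control and 3209 CPM in the exposed pool, while the other libraries had 195 to 562 CPM. Spermatid genes, 12 in number, summed to 44.9 to 159 CPM in controls and 2.99 to 6.76 CPM after exposure, with groups that did not overlap for any of the 12. The part of either list in the values below was not tested. Because of the liver genes, comparisons are given for all 6 libraries and for replicates 1 and 2 of each group. The spermatid difference remained in replicates 1 and 2, with sums of 159 and 48.2 CPM in controls and 6.76 and 2.99 CPM after exposure.

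The 10 genes were expressed at low to moderate levels. Compared per kilobase of annotated exon length, Ier2 had a mean over the 6 libraries of 10.3 CPM per kb (range 6.11 to 17.5) and Jun one of 8.99 CPM per kb (6.14 to 12.9), and these genes were the only members above the median of all tested genes, 3.88 CPM per kb. Their ranges overlapped each other. Dusp1 followed with 3.28 CPM per kb (2.31 to 4.55), then Egr1 with 2.60 (2.03 to 3.19), Zfp36 with 2.30 (1.84 to 2.85) and Nr4a1 with 1.96 (1.31 to 2.42). These 4 genes overlapped their neighbours in the order, and each lay wholly under Jun. Atf3 had 1.34 CPM per kb (0.887 to 2.14), Fos 1.26 (0.802 to 1.87) and Junb 0.857 (0.330 to 1.59), again with overlapping ranges. Fosb was lowest with 0.0682 CPM per kb (0.05 to 0.0857), below every library of the other 9 genes, and only 1.30% of tested genes had a lower level per kb.

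Among the AP-1 genes, Jun (ENSMUSG00000052684, GRCm38 chromosome 4 from 95049034 to 95052222, minus strand) encodes the partner shared by most AP-1 dimers. Jun was measured at 41.3, 33.7 and 19.6 CPM in control replicates 1, 2 and 3 and at 25.4, 23.98 and 28.1 CPM in APAP+IBU replicates 1, 2 and 3. The groups overlapped, since control replicate 3 was the lowest of the 6 libraries while the other controls were the highest. Junb (ENSMUSG00000052837, chromosome 8 from 84974484 to 84978718), a Jun relative with weaker activating power, had 3.67, 2.14 and 0.760 CPM in controls and 1.04, 1.57 and 2.65 CPM after exposure. Junb thus ranged 4.83-fold between its highest library (control replicate 1) and its lowest (control replicate 3), both of the same group. Its annotated span overlaps Prdx2 on the opposite strand, which had up to 22421 counts in a library. The strand setting of the counting is not given in the sources used here, so reads of such partners cannot be told apart.

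Fos (ENSMUSG00000021250, chromosome 12 from 85473890 to 85477273, plus strand) encodes the inducible partner of Jun. Its level was 3.70, 4.39 and 1.89 CPM in controls and 2.44, 2.92 and 2.44 CPM in exposed ovaries. All exposed libraries fell between control replicate 3 and the other controls. Fosb (ENSMUSG00000003545, chromosome 7 from 19302696 to 19310051), a close relative of Fos, had 0.341, 0.535 and 0.391 CPM in controls and 0.473, 0.502 and 0.312 CPM after exposure. These values rest on 12 to 24 reads per library, and no order of the groups was visible. Atf3 (ENSMUSG00000026628, chromosome 1 from 191170296 to 191218039), a stress-induced ATF/CREB family repressor, had 4.61, 2.94 and 2.37 CPM in controls and 1.91, 2.25 and 3.23 CPM after exposure, with APAP+IBU replicate 3 above both control replicates 2 and 3.

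**Figure D1:**
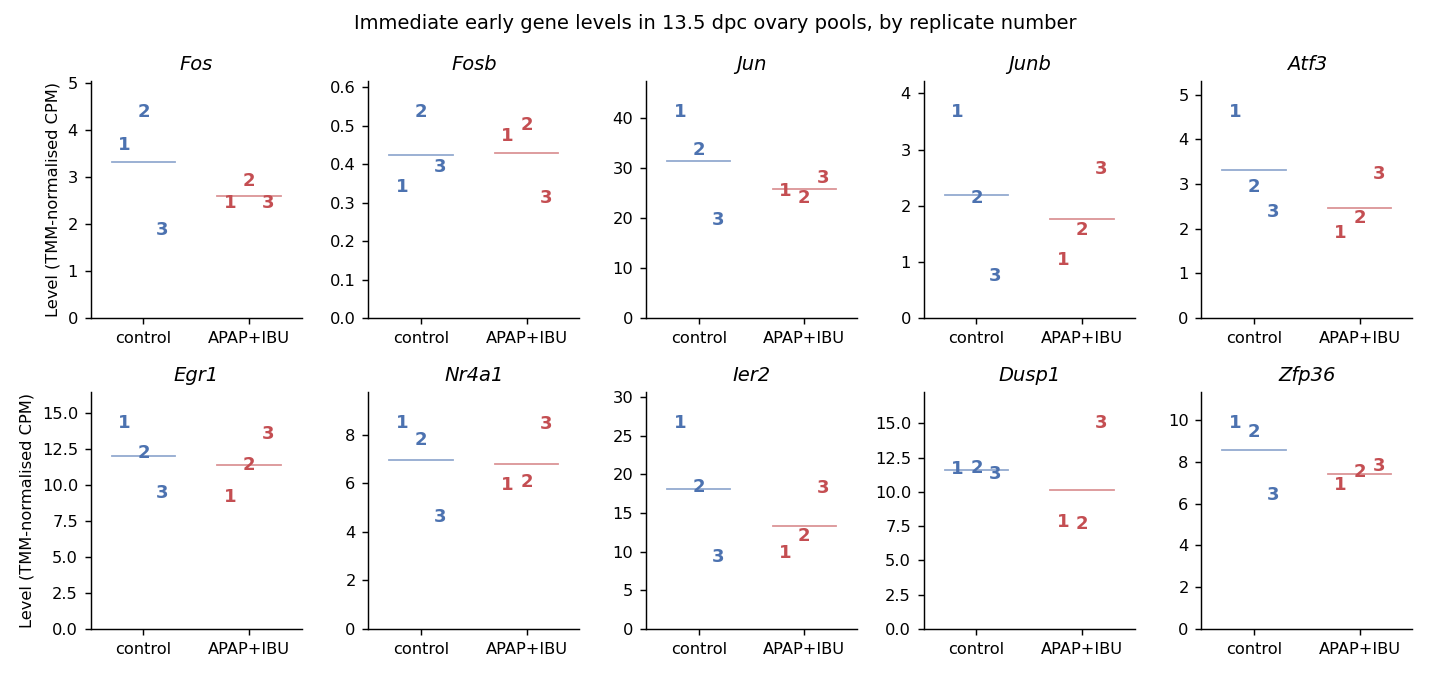
Level of each of the 10 immediate early genes in TMM-normalised CPM (y axis, from 0, own scale per gene) in the 3 control (blue) and 3 APAP+IBU (red) libraries, with each library drawn as its replicate number and the line at the group mean. Control 3 lies at the bottom of 6 genes and control 1 at the top of 7, while exposed 3 lies above control 3 in 9 of the 10 genes.

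Egr1 (ENSMUSG00000038418, chromosome 18 from 34859823 to 34864984), a zinc finger transcription factor downstream of ERK, had 14.3, 12.2 and 9.46 CPM in control replicates 1, 2 and 3 and 9.12, 11.3 and 13.6 CPM in APAP+IBU replicates 1, 2 and 3. The groups covered nearly the same range. Nr4a1 (ENSMUSG00000023034, chromosome 15 from 101254269 to 101274795), an orphan nuclear receptor known for its part in steroidogenic cells, had 8.49, 7.79 and 4.60 CPM in controls and 5.93, 6.04 and 8.45 CPM after exposure, so that APAP+IBU replicate 3 was level with the highest control. Ier2 (ENSMUSG00000053560, chromosome 8 from 84661331 to 84662852), an intronless gene for a small nuclear regulator, had 26.7, 18.3 and 9.30 CPM in controls and 9.77, 12.0 and 18.2 CPM after exposure. The highest and the lowest Ier2 value both came from control pools.

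Of the genes that end the response, Dusp1 (ENSMUSG00000024190, chromosome 17 from 26505590 to 26562128) encodes the phosphatase that switches off JNK, p38 and ERK. Dusp1 had 11.7, 11.7 and 11.3 CPM in controls and 7.82, 7.64 and 15.1 CPM after exposure. Its controls lay close together, with a mean of 11.6 ± 0.233 CPM (SD, n = 3), and the exposed libraries lay on both sides of them. Zfp36 (ENSMUSG00000044786, chromosome 7 from 28376784 to 28380253), encoding tristetraprolin, had 9.88, 9.44 and 6.40 CPM in controls and 6.90, 7.51 and 7.80 CPM after exposure. The exposed libraries again lay between control replicate 3 and the other controls. Genes on the opposite strand overlap Jun, Dusp1 and Zfp36 too, with up to 80 counts for Junos, 6820 for Ergic1 within the long annotated span of Dusp1, and 30 for Gm44710.

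With all 6 libraries, no difference of the 10 genes between APAP+IBU and control ovaries exceeded the spread between libraries. The quasi-likelihood test of edgeR, adjusted by Benjamini-Hochberg over 20167 genes, called 0 of the 10 genes and 0.0% of all tested genes. At an unadjusted p under 0.05 the count was 0 of 10, against 6.22% of tested genes, and DESeq2 called 0 of 10 with and without its beta prior (0.849% of tested genes without it, 0.773% lower and 0.0759% higher). The fold change was below 0 on the log2 scale for 9 of 10 genes, as for 50.6% of all tested genes, and the median over the 10 genes was -0.25 against -0.0047 over all tested genes. The lowest log2 fold changes by edgeR were those of Ier2 (-0.44 ± 0.38 SE, adjusted p = 0.724) and Atf3 (-0.43 ± 0.33 SE, adjusted p = 0.709), and Fosb had the only positive one (0.031 ± 0.39 SE, adjusted p = 0.980). In exact two-sided permutation tests of single genes, where 3 libraries against 3 cannot go below 0.1, p ran from 0.4 (Atf3, Dusp1 and Zfp36) to 1 (Fosb). The groups of 0 of 10 genes were separated without overlap, against 10.7% of tested genes (5.92% lower and 4.78% higher). A gonad with fewer cells of a responding type and one with less RNA per cell cannot be told apart in such bulk values.

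The 95% intervals from edgeR allowed folds of exposed over control from 0.661 to 1.36 for Egr1 and from 0.610 to 1.22 for Zfp36, the narrowest of the 10. They ran from 0.323 to 1.98 for Junb and from 0.550 to 1.90 for Fosb, the widest. A fall by more than the lower bound, or a rise by more than the upper bound, lay outside the interval for each of these genes, while smaller changes in either direction did not.

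**Figure D2:**
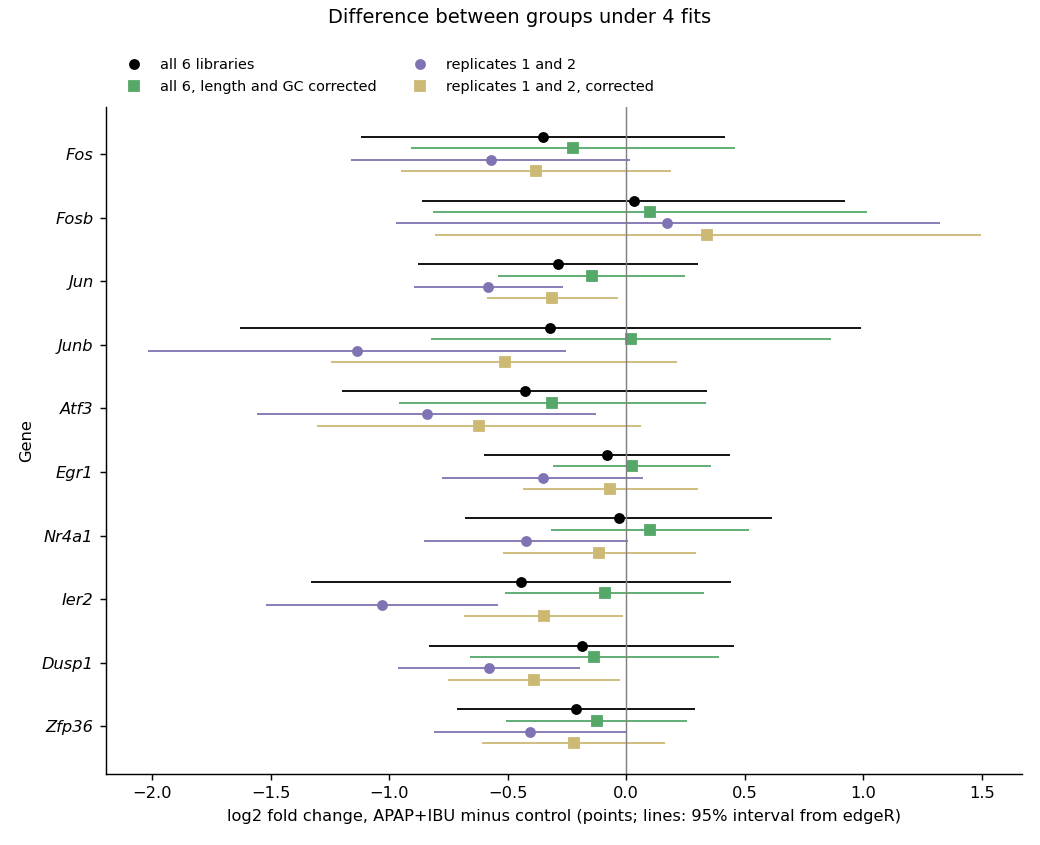
log2 fold change of APAP+IBU minus control for each gene (points) with its 95% interval from edgeR (lines), for all 6 libraries and for replicates 1 and 2, each without (circles) and with (squares) correction for gene length and GC content. Every interval over 6 libraries crosses 0, the intervals of Jun, Junb, Atf3, Ier2 and Dusp1 in replicates 1 and 2 without correction lie below 0, and the correction moves every point towards higher values.

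In replicates 1 and 2 of each group, Ier2, Jun and Dusp1 were lower after exposure, in calls that a correction for gene length and GC content ended. Ier2 fell by 1.03 on the log2 scale (± 0.21 SE, adjusted p = 0.0137 by edgeR), Jun fell by 0.58 (± 0.13 SE, adjusted p = 0.0201) and Dusp1 fell by 0.58 (± 0.16 SE, adjusted p = 0.0386). With the correction, described further on, Ier2 was at -0.35 (adjusted p = 0.147 by edgeR), Jun at -0.31 (adjusted p = 0.120) and Dusp1 at -0.39 (adjusted p = 0.137). Without it, 3 of 10 genes were called lower, against 12.9% of 20633 tested genes, and 0 of 10 were called higher, against 14.2% (27.2% in either direction). DESeq2 with its beta prior also called Junb, which made 4 of 10 lower against 14.1% of the genes it tested (28.4% in either direction). Of the others in edgeR, Junb was at -1.13 (standard error 0.38, adjusted p = 0.0614) and Atf3 at -0.84 (standard error 0.30, adjusted p = 0.0791). Fos (-0.57), Nr4a1 (-0.42), Zfp36 (-0.40) and Egr1 (-0.35) had adjusted p from 0.123 to 0.186, and Fosb was at 0.17 (adjusted p = 0.816). Both exposed libraries lay under both controls for 9 of the 10 genes, as they did for 35.6% of tested genes, and above both controls for 0, against 33.4%. With 2 libraries per group, these values rest on the pools that were kept. In these pools the tenth of genes richest in GC had median centred log2 CPM of 0.42 and 0.18 in controls and -0.19 and -0.075 after exposure. The correction of each library also removes any exposure difference that follows GC. Such a difference and a technical GC trend cannot be told apart here.

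In the replicate 3 libraries the exposed value was above the control value in 9 of 10 genes, as it was for 50.7% of tested genes, with ratios from 1.22 (Zfp36) to 3.49 (Junb), and Fosb was the exception with a ratio of 0.798. The median difference over the 10 genes, exposed minus control on the log2 scale, was 0.48 there. With 1 library per group, the difference in replicate 3 has no replicate check, and whether it differs from that in replicates 1 and 2 was not tested. The liver genes that mark these pools were high in both replicate 3 libraries, and their part in these values was not tested.

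Each gene's log2 CPM was centred on its mean over the 6 libraries, and the average over the 10 was 0.45, 0.27 and -0.42 in the controls (replicates 1, 2 and 3) and -0.31, -0.14 and 0.16 after exposure. Control replicate 1 was the highest library for 7 of the 10 genes, against 28.96% of tested genes, and control replicate 3 the lowest for 6, against 21.4%. Both held for 5 genes (Jun, Junb, Nr4a1, Ier2 and Zfp36), against 12.9% of tested genes. Among the others, Fos and Fosb were highest in control replicate 2 and Dusp1 in exposed replicate 3. The spread among libraries of a group, as an SD of log2 CPM, had a median of 0.40 over the 10 genes and 0.29 over all tested genes. It was largest in Junb (0.93, above 95.5% of tested genes) and Ier2 (0.63, above 87.0%) and smallest in Zfp36 (0.25, above 42.3%).

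The same order of libraries was seen in the GC content of genes, a property that the choice of the 10 genes did not use. The longest transcripts of the 10 genes had 51.9% to 62.6% G and C, with a median of 55.8% against 49.4% over all tested genes, and Junb and Ier2 were richer than 98.8% and 97.3% of tested genes. The 7112 tested genes within that range had median centred log2 CPM values of 0.22, 0.13 and -0.20 in the controls and of -0.12, -0.068 and 0.048 in the exposed pools, the order shown by the average of the 10 genes. The 2011 genes with the highest GC content had 0.42, 0.18 and -0.39 in controls and -0.19, -0.075 and 0.061 after exposure, again in that order. The 2011 genes with the lowest GC content had -0.39, -0.21 and 0.17 in controls and 0.29, 0.18 and -0.023 after exposure, with the opposite sign in every library.

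**Figure D3:**
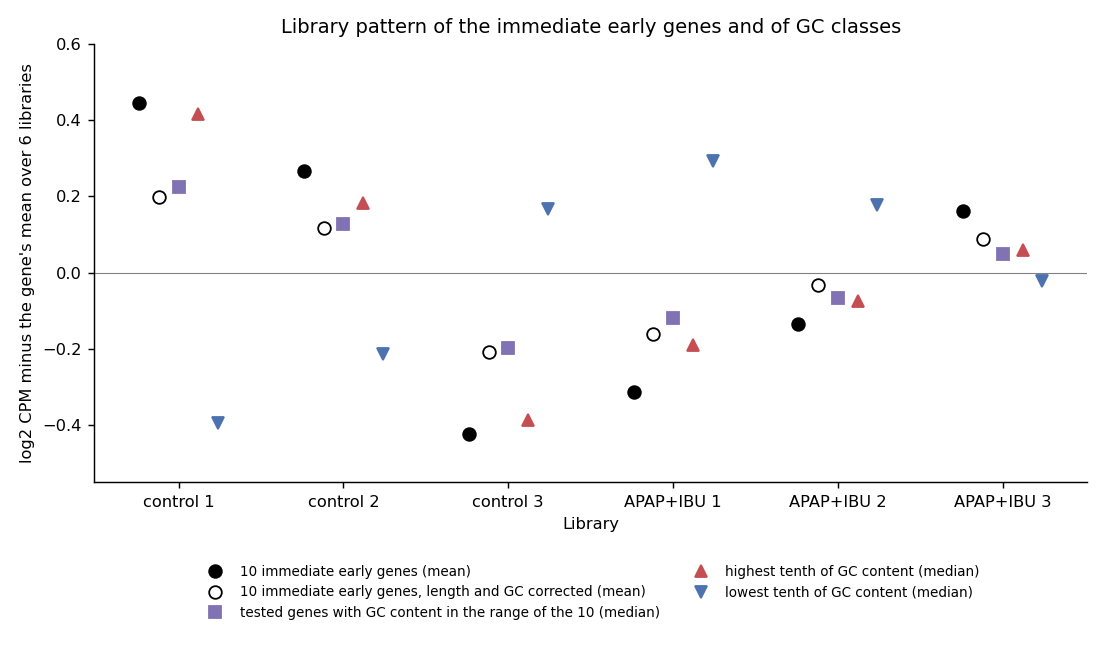
log2 CPM minus each gene's mean over the 6 libraries (y axis) in every library (x axis), averaged over the 10 immediate early genes before (filled circles) and after (open circles) correction for gene length and GC content, and as the median of tested genes in the same GC range (squares), and in the 2011 genes with the highest (triangles up) and the lowest (triangles down) GC content. The 10 genes and the GC-rich classes are highest in control 1 and lowest in control 3, and the GC-poor class has the opposite sign in each library.

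A loess fit over the tested genes was used to correct every library for length and GC content, and the log2 fold changes of the 10 genes then lay higher. With all 6 libraries the median log2 fold change was -0.11 in place of -0.25, with 6 of 10 genes below 0, and 0 of 10 were called (0.0% of tested genes) or had an unadjusted p under 0.05. Ier2 moved from -0.44 to -0.090 (± 0.18 SE, adjusted p = 0.871 by edgeR) and Junb from -0.32 to 0.019 (± 0.37 SE, adjusted p = 0.989). Fos, with the least GC of the 10, moved from -0.35 to -0.22, and Atf3 from -0.43 to -0.31. In replicates 1 and 2 the corrected median was -0.33 in place of -0.57, and 0 of 10 genes were called, against 7.98% of tested genes called lower and 5.85% called higher. Jun, Dusp1 and Ier2 had there an unadjusted p under 0.05, as had 6440 of 20633 tested genes. Both exposed libraries still lay under both controls for 8 of 10 genes, as for 32.2% of tested genes. The corrected average of the 10 genes kept the order of the libraries at a smaller size, with 0.20, 0.12 and -0.21 in controls and -0.16, -0.034 and 0.088 after exposure. The spread within groups had a corrected median of 0.29 for the 10 genes and 0.23 for all tested genes.

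**Figure D4:**
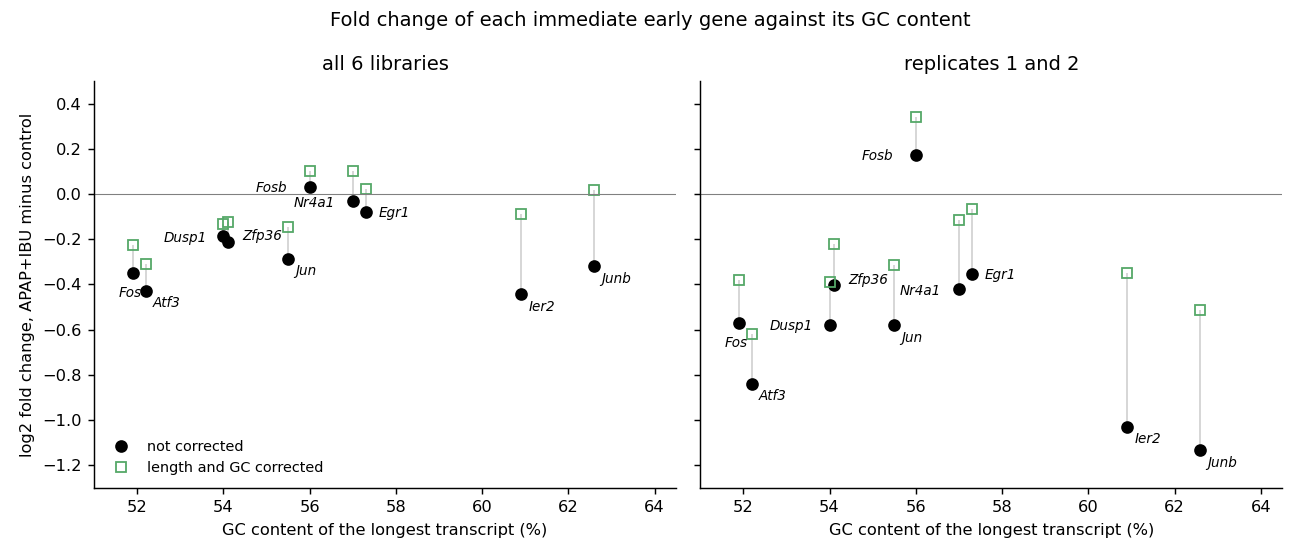
log2 fold change of APAP+IBU minus control (y axis) of each immediate early gene against the GC content of its longest transcript (x axis, percent), before (filled circles) and after (open squares) correction for gene length and GC content, for all 6 libraries (left) and replicates 1 and 2 (right). Grey lines join both values of a gene and are longest for Ier2 and Junb, the genes with the most GC.

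In a list of 52 further genes of the class (Egr2, Klf4, Myc and others), 49 were tested with all 6 libraries and 0 were called, with 0 at an unadjusted p under 0.05. Of these 49, 37 were below 0, and their median log2 fold change was -0.15. The smallest unadjusted p values were those of Ccn1, an integrin ligand of the matrix, which had 13.8, 9.87 and 8.88 CPM in controls and 8.10, 6.83 and 8.61 CPM after exposure (log2 fold change -0.47, adjusted p = 0.692 in edgeR's test), and of Dusp5, a nuclear ERK phosphatase (-0.33, adjusted p = 0.692). In replicates 1 and 2, 10 of 50 genes were called lower and 1 higher, beside 12.9% and 14.2% of tested genes. The largest falls were in Cebpb (a leucine zipper factor of inflammation and of the ovary, -1.67), Jund (a further Jun protein, -1.33), Ier5l (-1.13) and Klf2 (an endothelial zinc finger factor, -1.0), with adjusted p from 0.0185 to 0.0446, and the gene that rose was Errfi1 (an inhibitor of the EGF receptor, 0.31, adjusted p = 0.0390). After the correction 0 of 50 were called, and Cebpb was at -0.74 (adjusted p = 0.141) and Jund at -0.43 (adjusted p = 0.0874). Jund, with 69.4, 35.9 and 13.0 CPM in controls and 17.2, 24.02 and 30.0 CPM after exposure, was also highest in control replicate 1 and lowest in control replicate 3. Ptgs2, which is both an immediate early gene and a target enzyme of ibuprofen, was named outside the rule for named genes and had a log2 fold change of -0.050 with 6 libraries and 0.37 in replicates 1 and 2 (adjusted p = 0.653), which turned to -0.29 and -0.17 (adjusted p = 0.808 and 0.874) with the correction.

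Of 36 genes of the relay that leads to these genes (RAS, RAF, MAP kinases, ribosomal S6 kinases, protein kinases A and C, the partners of serum response factor, CREB and its coactivators), 0 were called with all 6 libraries and 1 had an unadjusted p under 0.05, Ep300, a histone acetyltransferase and CREB coactivator (log2 fold change 0.55 ± 0.21 SE, adjusted p = 0.692 by edgeR). Prkaca, the catalytic subunit of protein kinase A, followed with -0.29 (adjusted p = 0.692). The median of the 36 was 0.035. In replicates 1 and 2, 11 rose and 6 fell, beside 14.2% and 12.9% of tested genes. Those that rose most were Ep300 (0.88), Braf (0.86), Rps6ka3 (0.83) and Rps6ka5 (0.72), and those that fell most were Map2k2 (-0.81), Hras (-0.78), Rps6ka4 (-0.59) and Mapk3 (-0.45). After the correction 2 were called higher (beside 5.85% of tested genes) and 4 lower (beside 7.98%). Of these 6 genes, 4 kept their call and direction, namely Ep300 (0.65, adjusted p = 0.0123), Mrtfb (a serum response factor partner, 0.42, adjusted p = 0.0290), Hras (-0.56, adjusted p = 0.0266) and Map2k2 (-0.44, adjusted p = 0.0387). The other 2 were called in both fits with opposite signs. Creb1, the CREB gene itself, turned from 0.47 (adjusted p = 0.0241) to -0.39 (adjusted p = 0.0361), and Mapk8, which encodes JNK1, turned from 0.38 (adjusted p = 0.0245) to -0.38 (adjusted p = 0.0384). Mrtfb, Creb1 and Mapk8 were named after their values were seen. Leaving out control replicate 3 alone gave 4 called relay genes.

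Many heat shock genes respond to handling and stress as immediate early genes do, though the list also holds constitutive chaperones such as Hspa8. With all 6 libraries, 8 of 8 had a log2 fold change below 0, as had 50.6% of tested genes. However, 0 of 8 were called, and 2 had an unadjusted p under 0.05, as had 6.22% of tested genes. Hsph1, a cochaperone of HSP70, had 203, 200 and 194 CPM in controls and 147, 156 and 172 CPM after exposure (log2 fold change -0.33, adjusted p = 0.692 in edgeR's test), the only one of the 8 whose groups did not overlap, as did 5.92% of tested genes in that direction. Hspa8, the constitutive HSP70, was at -0.47 (adjusted p = 0.692 by edgeR). In replicates 1 and 2, 4 of 8 were called lower, beside 12.9% of tested genes. These were Hspb1 (-1.33), Hspa8 (-0.76), Dnajb1 (-0.42) and Hsph1 (-0.39). After the correction 3 of 8 were called lower, beside 7.98% of tested genes, namely Hspa8 (-0.93), Hsph1 (-0.61) and Dnaja1 (-0.77), the last named after its value was seen. Without the correction Dnaja1 was at -0.17 (adjusted p = 0.226 by edgeR) and was not called. Hspb1 (-0.59, adjusted p = 0.0789 by edgeR) and Dnajb1 (-0.27, adjusted p = 0.106) were no longer called with the correction. The heat shock list thus held calls in these 4 libraries after the correction, whereas the 10 immediate early genes held 0. Whether the lists differ was not tested.

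**Figure D5:**
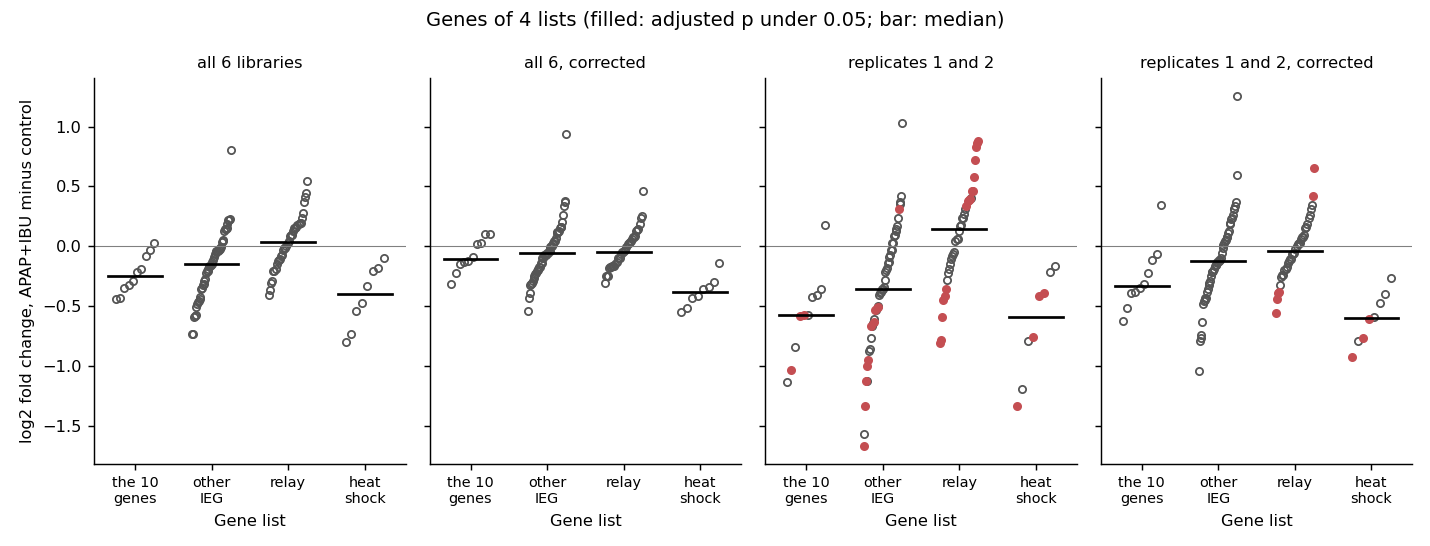
log2 fold change of APAP+IBU minus control (y axis) for the 10 immediate early genes, the other immediate early genes (IEG), the relay genes and the heat shock genes (x axis), in 4 fits from left to right, with filled red points for genes called at an adjusted p under 0.05 and the bar at the median of the list. No point is filled with all 6 libraries, and of the 10 genes 3 are filled in replicates 1 and 2 and 0 after correction for length and GC content.

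Immediate early mRNAs are made in many cell types of the gonad, so the marker lists are given beside them. Of all tested genes, 50.6% had a log2 fold change below 0 with all 6 libraries. In replicates 1 and 2, 12.9% of tested genes were called lower and 14.2% higher. With the correction, 7.98% were called lower there and 5.85% higher. With all 6 libraries, 7 of 8 macrophage markers were below 0 and 0 were called. Their sum was 112 to 120 CPM in controls and 81.2, 77.9 and 130 CPM in exposed replicates 1, 2 and 3, with exposed replicate 3 the highest. Of the 8, 3 were called lower in replicates 1 and 2, and 0 of 8 after the correction. Of 7 endothelial markers, 6 were below 0 and 0 were called, with a sum of 488 to 535 CPM in controls and 413 to 471 CPM after exposure. Called lower in replicates 1 and 2 were 2 of the 7, both without and with the correction. The sum of 6 supporting cell markers was 679 to 811 CPM in controls and 753 to 920 CPM after exposure, and that of 7 germ cell markers was 889 to 1188 CPM and 1081 to 1151 CPM. Among supporting cell markers, 1 was called higher and 1 lower in replicates 1 and 2 (1 higher with the correction), and among germ cell markers 2 were called higher and 3 lower (0 with the correction). Of 6 stromal markers 2 were called higher there, and 2 lower with the correction. Erythroid markers summed to 6972 to 17041 CPM in controls and 3167 to 10142 CPM after exposure, and 4 of 10 were called lower in replicates 1 and 2 (0 with the correction). No marker of these lists was at 0 in all libraries. Their part in the levels of the 10 genes was not tested.

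The genes whose pattern over the 6 libraries was most like the average of the 10 were sought among 12446 other tested genes with a mean of at least 5 CPM. Likeness was measured as the root mean square difference of centred log2 CPM, which had a median of 0.34 over these genes. The 5 nearest were Rps18 (0.017), a protein of the small ribosomal subunit, Gtf3a (0.032), the factor for 5S rRNA genes, Med11 (0.033), a Mediator subunit, Wdr18 (0.036), a ribosome biogenesis protein, and Guk1 (0.037), guanylate kinase. Their GC content ran from 51.1% to 57.4%, and 7112 of 20103 tested genes lay in the GC range of the 10. None of the 5 belongs to the lists of immediate early, relay or heat shock genes. Those lists are short beside 12446 genes, so a hit was unlikely in any case. The 5 were picked as the nearest, so their distances cannot be set against those of the members. Of the 10 members, Nr4a1 (0.11), Zfp36 (0.12), Jun (0.12) and Egr1 (0.12) lay nearest their common average and Junb (0.47) and Fosb (0.47) farthest, in an average that the members themselves form.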

How the data were processed

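RNA of 13.5 dpc ovaries was sequenced as stranded polyadenylated libraries from 300 ng of total RNA with 12 PCR cycles, paired-end. The authors mapped the reads to mm10 (TopHat2 2.0.14, Bowtie2 2.1.0), counted them per gene of Ensembl release 86 with HTSeq 0.6.1 and deposited raw counts. The samples were grouped by their exposure label. GENCODE M21 (GRCm38, the assembly of mm10, a later annotation) gave symbols, positions, exon lengths and GC. On all 6 libraries, edgeR 4.0.16 (R 4.3.3) was run after TMM normalisation, and 20167 genes passed its expression filter. DESeq2 1.42.0, the tool of the study in a later version, other normalisations, other filters, a replicate block, a length and GC correction (loess, span 0.3) and leave-one-out fits were the alternatives. Log2 CPM used a prior count of 1. No 2 libraries were counted as duplicates, since pairs of a group differed by 17.2 to 143 in chi-square per degree of freedom. P-values set the difference between the groups against the spread between these pools. The fits were also run on simulated counts, which gave every gene the same extra spread and held no GC trend, liver or spermatid differences between libraries. That run therefore cannot show how the fits behave under such differences.

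The 10 genes were chosen by symbol and not by their values. Earlier results of these data were known when the 10 genes, the companion lists and the alternatives were chosen. No pattern therefore serves as independent support. The text names the 10 genes, in each companion list the called genes of largest change (at most 4 each way in replicates 1 and 2) and the genes of smallest p over 6 libraries, and the 5 genes nearest in pattern. Standard errors were derived from the quasi-likelihood F statistic.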

Additional observations from a re-analysis of the deposited data

How the results depend on the processing

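The count of called genes among the 10 was 0 under every alternative that kept 5 or 6 libraries, whereas fits to replicates 1 and 2 gave 3 in edgeR, 4 by DESeq2 (beta prior) and 0 once length and GC were corrected. Of all tested genes, the alternatives with 5 or 6 libraries called 1064 of 20634 without control replicate 3, 120 when every gene with a count was kept, 235 by DESeq2 without shrinkage and 186 with its prior, 30 and 2 with the replicate block with and without the correction, and 0 in the rest. Other immediate early genes went from 0 to 11 in replicates 1 and 2 and to 13 there with DESeq2. Relay genes went from 0 to 17, 17 with DESeq2 and 6 with the correction, and leave-one-out fits gave 0 to 4. Heat shock genes went from 0 to 4, 4 and 3, and leave-one-out fits gave 0 to 1. In both lists the highest leave-one-out count came without control replicate 3. The cause of these moves was not tested. The median log2 fold change of the 10 genes ran from -0.46 (without control replicate 3) to -0.076 (without control replicate 1) in leave-one-out fits.

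Of 200 values of single genes, 175 kept their direction and side of the threshold, 7 passed the threshold and 18 changed sign. Junb was at 0.019 with the length and GC correction, 0.026 with that correction and the replicate block, and -0.76 to 0.28 in leave-one-out fits. Egr1 was at 0.024, 0.017 and -0.25 to 0.067, and Nr4a1 at 0.10, 0.10 and -0.26 to 0.14, with 0.0063 for total counts only. Fosb ran from -0.11 to 0.23 in leave-one-out fits. No value that changed sign had an adjusted p under 0.05.

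Deviations of libraries with the same number showed little correlation across all tested genes (r = -0.069, -0.015 and -0.044). Liver genes still went together. Their mean centred log2 CPM in replicates 1, 2 and 3 was -1.29, -0.33 and 1.60 in controls and -1.78, -0.57 and 2.37 after exposure. Whether libraries of the same number share an experiment was not tested. With the replicate block, 0 of the 10 genes were called and their fold changes ran from -0.41 (Atf3) to 0.022 (Fosb). Depth limits Fosb most, at 12 to 24 reads per library.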
